A study of Mus musculus with 4 samples.

Results

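The cells described here were picked from mouse spleen by a marker rule meant for classical monocytes outside the cell cycle. The rule took barcodes with 500 or more unique molecular identifiers (UMIs, counted RNA molecules), 250 or more genes and no more than 10% of UMIs from mitochondrial genes. It then required at least 3 of 6 monocyte genes to be detected: Ly6c2, Ccr2, F13a1, Fn1, Csf1r and Ms4a6c. Cells with 3 or more of Ace, Treml4, Adgre4, Eno3 and Ear2, or of C1qa, C1qb, C1qc and Vcam1, were left out. So were cells in which Camp, Ngp and Ltf together, or Elane, Mpo and Prtn3 together, reached 0.5% of UMIs, and cells with 2 or more UMIs of Mki67, Top2a, Cenpf and Nusap1. The rule selected 724 of 53945 cells that passed the limits on depth.

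The spleens came from 4 female C57BL/6J mice, of which 2 were wild type (WT) and 2 were heterozygous for a constitutive, whole-body CRISPR/Cas9 knock-in of Ccnd3 (D3TA). Every cell of a D3TA mouse therefore carried the allele, and no promoter or Cre limited it to blood. The mice were 12 and 16 months old, an age at which this model shows a myeloproliferative neoplasm, and the labels do not tie an age to a mouse. Each mouse gave 1 droplet single-cell library, so n is 2 per genotype. The selected cells numbered 171 in WT replicate 1, 74 in WT replicate 2, 268 in D3TA replicate 1 and 211 in D3TA replicate 2.

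Classical monocytes leave the bone marrow through the chemokine receptor Ccr2, circulate with a high level of the surface protein Ly6C, and can become macrophages, some dendritic cells or nonclassical monocytes. The spleen holds a reserve of them, and in stress the organ also makes monocytes itself. Cyclin D3, the product of Ccnd3, binds Cdk4 and Cdk6 in the G1 phase, and a phosphorylated threonine near its end marks it for degradation.

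The knock-in changes that threonine (T283A, counted from the first residue of the protein). In the GRCm38 annotation, codon 283 lies on the plus strand in the coding part of Ccnd3 at chr17:47598744-47598746, in exon 7 of 4 of the 5 annotated transcripts with the 292-residue protein and in exon 5 of the other. The reference sequence of residues 278 to 292, at chr17:47598729-47598773, is shown with that codon in capitals because this codon is the only designed difference between the groups. The edited base was not read here.

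Ccnd3 residues 278 to 292: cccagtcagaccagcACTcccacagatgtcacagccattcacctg

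Depth differed between libraries. WT replicate 1 was shallow, with a median of 1953 UMIs per selected cell. The medians of the others were 12708 (WT replicate 2), 10244.5 (D3TA replicate 1) and 10807 (D3TA replicate 2). The selected cells of a library summed to between 817758 and 2929770 UMIs. Any pair of libraries shared between 20 and 96 barcodes among the cells that passed the depth limits, 304 in all, and 2 of the selected barcodes occurred in a second library. Levels below are in CPM, the UMIs of a gene relative to all UMIs summed over the stated cells of 1 library, and they serve to compare the same gene between kinds of cell or libraries.

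The name of the cells was checked against their own markers first. Most of the selected cells sat at the lower edge of the rule. Outside WT replicate 1, most of the cells at that edge did not look like monocytes. Of the 724 cells, 461 (63.7%) had exactly 3 of the 6 markers, 79 had 4, 51 had 5 and 133 had all 6. Among cells with exactly 3 markers, 287 (62.3%) were picked through Ly6c2, Ccr2 and Ms4a6c together, and Ly6c2 and Ccr2 are also known from memory T cells. All values below are given in the order WT replicates 1 and 2, D3TA replicates 1 and 2.

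The level of Lyz2, the lysozyme gene that mononuclear phagocytes express strongly and that the rule did not use, was higher in cells with more markers. In cells with 3 markers it was 1547, 189, 405 and 256 CPM. In cells with all 6 markers it was 26560, 25900, 17400 and 13080 CPM, so every library was far higher there, and the cells with 4 and 5 markers lay between, with WT replicate 2 the lowest at both steps (284 and 1294 CPM). T-marker cells, which met the same depth limits, lay outside the selection and had at least 3 of the 6 T cell markers named below, held 22.8, 19.0, 160 and 60.6 CPM of Lyz2.

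The opposite order was seen for genes of the T cell receptor complex. Cd3e, a signalling chain of that complex, was at 242, 147, 258 and 210 CPM in cells with 3 markers and at 9.09, 4.06, 24.7 and 13.6 CPM in cells with 6. The 6 T cell markers (Cd3d, Cd3e, Cd3g, Trac, Trbc2 and Lat) summed to 1739, 1524, 2265 and 1721 CPM at 3 markers, and to 72.7, 4.06, 291 and 56.6 CPM at 6 markers, where Cd3d, Cd3g, Trac, Trbc2 and Lat were at 0 in WT replicate 2. At least 3 T cell markers were detected in 300 of the 461 cells with 3 monocyte markers (65.1%) and in 5 of the 133 cells with 6. By library, they were detected in 23 of 84, 23 of 41, 137 of 189 and 117 of 147 cells with 3 monocyte markers. Most such cells of WT replicate 1 thus lacked them, and their median depth was 1694.5 UMIs. Whether low depth cut the number of monocyte markers detected there was not tested. Cd8a, which marks cytotoxic T cells, reached 98.7, 128, 146 and 163 CPM at 3 markers and at most 4.06 CPM at 6.

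**Figure D1:**
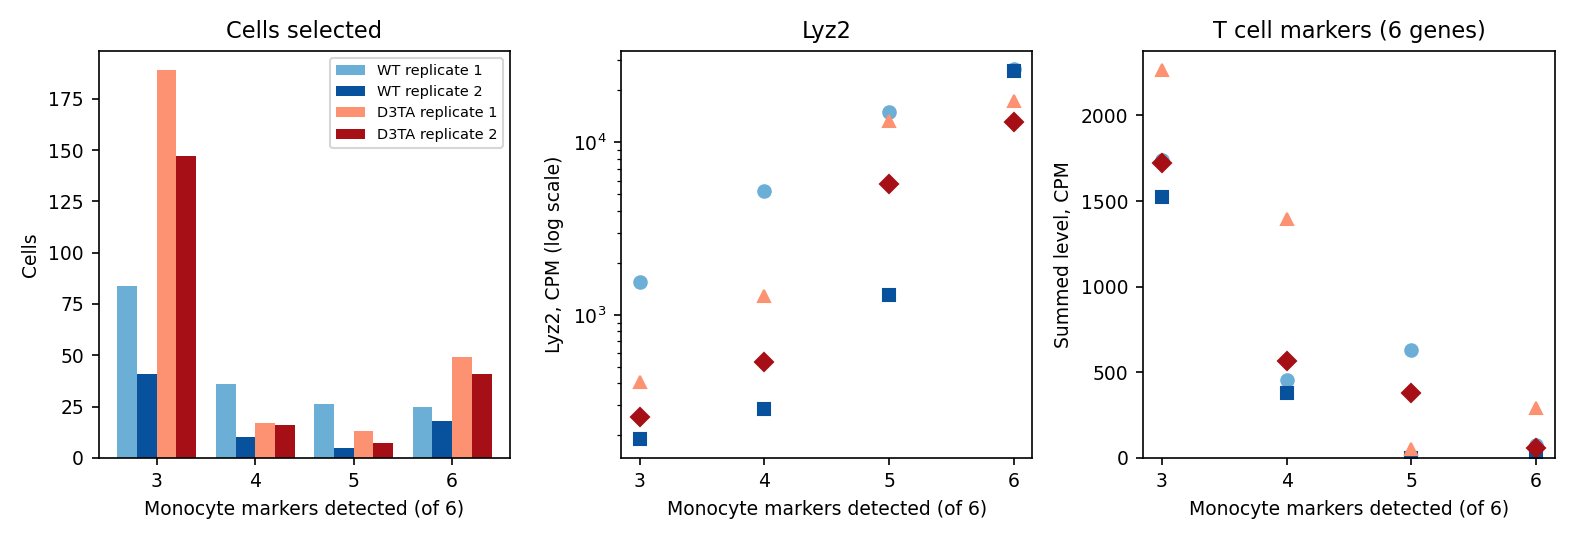
Number of selected cells (left), Lyz2 level on a log scale (middle) and summed level of 6 T cell markers (right) in each library, by the number of the 6 monocyte markers detected in a cell. Cells with 3 markers were the most numerous in each library, had the least Lyz2 and the most T cell marker RNA, and points are single libraries without an error bar.

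The data therefore went against the name for much of the selection, by T cell markers least in WT replicate 1. The whole selection is called the selected cells from here on. Cells with at least 4 markers (263 cells: 87, 33, 79 and 64) and cells with 5 or 6 markers (184 cells: 51, 23, 62 and 48) are described beside it. A cut at 4 was listed as an alternative of the rule, and the 5-or-6 group was added after the data were seen and is given without a test. Just outside the rule, the 2509 cells with 2 markers had 222, 355, 481 and 130 CPM of Lyz2, and 1187 of them (47.3%) had at least 3 T cell markers.

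Other genes of the monocyte programme followed the same order. Cybb, the catalytic subunit of the phagocyte oxidase, went from 271, 245, 184 and 158 CPM at 3 markers to 1755, 1539, 1198 and 1543 CPM at 6. Klf4, a transcription factor needed for monocyte formation, went from 22.2, 7.65, 14.1 and 13.9 CPM to 150, 187, 88.1 and 185 CPM. Chil3, a secreted chitinase-like protein of marrow-derived monocytes, was at 37.0, 0, 63.6 and 56.7 CPM at 3 markers and at 1118, 1385, 1267 and 966 CPM at 6. The ranges at 3 and at 6 markers did not overlap for any of these 3 genes. In D3TA T-marker cells Chil3 stood at 70.8 and 65.4 CPM, as high as in the 3-marker cells of the same libraries.

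Single cells also varied within each level. In D3TA replicate 1, the 49 cells with 6 markers spanned 63.2 to 409 Lyz2 UMIs per 10000, with a median of 181. The 189 cells with 3 markers of that library spanned 0 to 131 with a median of 0.99, and 64 of them had no Lyz2 UMI. In the shallow WT replicate 1, the median of the 84 cells with 3 markers was 41.9. Scrublet, a doublet caller, marked 34 of the 461 cells with 3 markers and 11 of the 263 with more, and these were kept.

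Markers of other cells were present as well. At least 3 neutrophil markers (of Camp, Ngp, Ltf, Retnlg, Cxcr2, Mmp8, Lcn2 and Csf3r) were found in 388 selected cells, of which 0 and 1 were in the WT libraries and 223 and 164 in the D3TA libraries. The same held for 1, 3, 1565 and 1055 T-marker cells, or 68.0% and 60.8% of those in D3TA replicates 1 and 2, against 83.2% and 77.7% of the selected cells. At least 3 B cell markers were found in 154 selected cells and at least 3 markers of conventional dendritic cells in 87. Among the 79 cells with exactly 4 monocyte markers these counts were 28 (35.4%) and 25 (31.6%). The 8 neutrophil markers summed to 59.2, 19.1, 2605 and 1362 CPM in cells with 3 monocyte markers and to 290, 240, 1017 and 1431 CPM in cells with 5 or 6. At 5 or 6 markers Camp and Cxcr2 were at 0 in both WT libraries, Ngp and Lcn2 in WT replicate 1, and Ltf and Retnlg in WT replicate 2. The 6 B cell markers summed to 845, 452, 456 and 491 CPM at 5 or 6 markers. The 7 dendritic cell markers summed there to 203, 417, 378 and 489 CPM, with Xcr1 at 0 in each library.

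The first comparison asked how large a share the selected cells made up of the cells that passed the depth limits. The other cells in that total differed between libraries. B-marker cells, taken outside the selection like the T-marker cells, numbered 14406 of 22619, 5207 of 7876, 1890 of 12500 and 4048 of 10950. T-marker cells numbered 1247, 1039, 2301 and 1736. A higher share therefore need not mean more such cells in a spleen. In the WT libraries their shares were 0.756% (95% exact binomial interval 0.647 to 0.878) and 0.940% (0.739 to 1.18). In the D3TA libraries they were 2.14% (1.90 to 2.41) and 1.93% (1.68 to 2.20). Both D3TA shares lay above both WT shares, with means of 0.848% ± 0.130 (SD, n = 2) in WT and 2.04% ± 0.154 in D3TA. With 2 libraries against 2, the exact two-sided permutation test cannot go below p = 0.333, the value obtained here, and the intervals cover counting error only.

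Most of that gap came from cells with 3 markers. Cells with at least 4 markers made up 0.385%, 0.419%, 0.632% and 0.585%, a gap between the group means of 0.206 percentage points in place of 1.19. With cells left out that held 3 or more markers of B, T, NK, plasma, erythroid, basophil, platelet or dendritic cells (cells with neutrophil markers were kept), the shares were 0.265%, 0.216%, 0.400% and 0.301% and the gap was 0.110 points. After thinning each cell to 1000 UMIs, which left out 7416, 257, 550 and 520 shallower cells, the shares were 0.467%, 0.341%, 1.09% and 0.662% (0.914%, 0.971%, 2.23% and 2.00% of the same cells before thinning). Both D3TA libraries stayed above both WT libraries at each of these settings (exact permutation p = 0.333). The order turned when cells with 3 or more neutrophil markers were left out, a setting added after the data were seen. The shares were then 0.756%, 0.927%, 0.36% and 0.429%, and the gap, D3TA minus WT, was -0.447 points (exact permutation p = 0.333). That setting took out 0 and 1 WT cells against 223 and 164 D3TA cells, and the totals that the shares refer to were left unchanged. Because 68.0% and 60.8% of D3TA T-marker cells held such markers too, the setting cannot tell whether the share is lower in D3TA.

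The limit on cycling genes removed many more cells from the D3TA libraries than from the WT libraries. Cells that met every other limit but held 2 or more UMIs of the 4 cycling genes numbered 3, 9, 217 and 90. They were 1.72%, 10.8%, 44.7% and 29.9% of the selected and these cells together, with means of 6.28% ± 6.45 (SD, n = 2) in WT and 37.3% ± 10.49 in D3TA (exact permutation p = 0.333). Among cells with at least 4 markers the cycling share was 0% (0 of 87 cells, interval up to 4.15%), 8.33%, 67.2% and 50%. On cells thinned to 1000 UMIs it was 0%, 0%, 30.1% and 31.0%, so the D3TA libraries stood above the WT libraries at equal depth too.

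Most cells removed as cycling from the D3TA libraries had more than 3 markers. Of the 217 and 90 cycling cells, 162 and 64 had at least 4 markers. Their Lyz2 level was 9524 and 6788 CPM in D3TA replicates 1 and 2. The 3 such WT cells, all from WT replicate 2, held 2492 CPM of Lyz2. Cycling cells with at least 4 markers made up 1.30% and 0.585% of all cells in D3TA replicates 1 and 2. At least 3 neutrophil markers were found in 159 of these 162 cells and in 61 of the 64. At least 3 neutrophil precursor markers (Elane, Mpo, Prtn3, Ctsg and Ms4a3) were found in 70 and 18 of them. The same held for 11 of 268 and 3 of 211 selected cells. It held for 53 of 2301 and 21 of 1736 D3TA T-marker cells. How many of these cycling cells were monocytes was not tested.

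**Figure D2:**
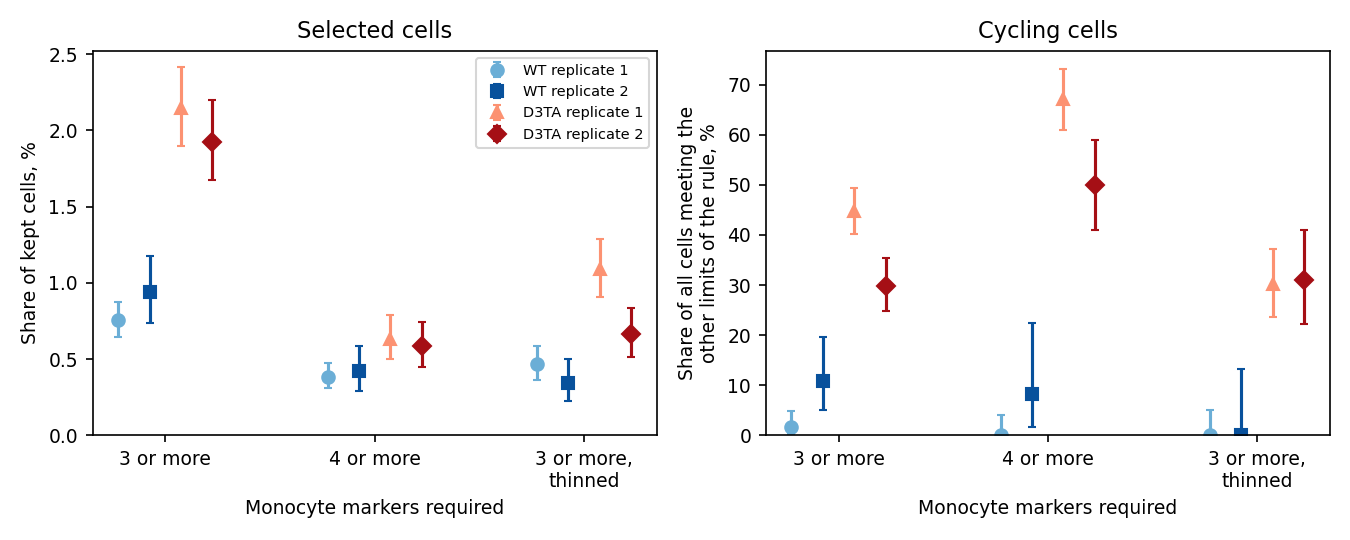
Share of selected cells among the cells of a library (left) and share of cycling cells among all cells that met the other limits (right), for 3 or more markers, 4 or more markers, and 3 or more markers after thinning to 1000 UMIs. Points are libraries and bars are 95% exact binomial intervals, and both D3TA libraries lie above both WT libraries in each column, by 1.19 points in the first column of the left panel and 0.206 in the second.

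The second comparison asked which genes differed between D3TA and WT in the selected cells. The mixture of cells was not the same in each library. At least 3 T cell markers were found in 28 of 171, 24 of 74, 148 of 268 and 124 of 211 selected cells. Cells with at least 4 markers were a mixture as well. At least 3 B cell markers were found in 41 of 87, 3 of 33, 9 of 79 and 6 of 64 of them. At least 3 markers of conventional dendritic cells were found in 5, 14, 10 and 19. How much of a difference in either set of cells came from its mixture was not tested. UMIs were summed over the cells of a library and tested with edgeR's quasi-likelihood test, with Benjamini-Hochberg adjustment over all 10084 genes tested. Of these, 29 were called at an adjusted p under 0.05 (0.288%), 25 higher in D3TA (0.248%) and 4 lower (0.0397%), and 995 genes had an unadjusted p under 0.05. The calls depended on single libraries: 12 genes were called without WT replicate 1, 0 without WT replicate 2 (602 at an unadjusted p under 0.05), 428 without D3TA replicate 1 and 617 without D3TA replicate 2. DESeq2 called 75 (0.744%), 43 higher (0.426%) and 32 lower (0.317%). In cells with at least 4 markers, edgeR called 18 of 7041 genes (0.256%), 12 higher (0.17%) and 6 lower (0.0852%), and 45 to 445 with 1 library left out. DESeq2 called 12 there (0.17%), 9 higher (0.128%) and 3 lower (0.0426%). By edgeR, 13 genes were called in both fits, of 29 and of 18.

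The genes called higher included transcripts of neutrophil granules, immediate early genes and genes of T or NK cells. Of the 25, 18 stood in the selected cells at under 1 part in 5 of their level in another cell type, and the part of RNA free in the droplets was not tested. In T-marker cells, the D3TA libraries were likewise both above the WT libraries for 22 of the 25, against 18.4% of all genes tested.

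Granulocyte transcripts gave the largest folds. S100a8, which with S100a9 encodes the calprotectin of neutrophils and monocytes, was at 73.4, 21.4, 4541 and 2392 CPM in all selected cells and at 60.6, 14.6, 2338 and 1888 CPM in cells with at least 4 markers. Its log2 fold change was 6.20 ± 0.59 (SE, edgeR adjusted p = 0.00311) in all selected cells and 5.82 ± 0.50 (adjusted p = 1.48e-05) with at least 4 markers. S100a9 was at 67.9, 24.3, 3091 and 2206 CPM with at least 4 markers, where it was called as well. The WT and D3TA libraries did not overlap for either gene.

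Lymphocytes of the same D3TA spleens held these transcripts too. In T-marker cells S100a8 was at 45.1, 39.6, 2326 and 1003 CPM and in B-marker cells at 249, 60.2, 1491 and 1039 CPM. In D3TA replicate 1 the S100a8 levels of cells with at least 4 monocyte markers and of T-marker cells lay close together, and in D3TA replicate 2 the former were higher. Selected D3TA cells with 3 monocyte markers held more S100a8 than either, at 5598 and 2592 CPM. Camp, a granule peptide of neutrophils, was at 9.70, 2.43, 275 and 199 CPM with at least 4 markers and at 4.28, 5.53, 405 and 247 CPM in T-marker cells, the latter higher in both D3TA libraries. Ngp and Ltf, further granule proteins, and Lcn2, a siderophore-binding protein, reached 171 and 185, 71.6 and 68.3, and 196 and 105 CPM in D3TA cells with at least 4 markers. In D3TA T-marker cells they stood at 227 and 206, 86.8 and 93.8, and 135 and 74.9 CPM. Camp, Ngp and Ltf were limited by the rule itself, so their values only describe the cells it let through.

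Retnlg and Hdc differed more from the lymphocytes in D3TA replicate 2. Retnlg, a resistin-like protein of neutrophils, was at 2.42, 0, 231 and 411 CPM with at least 4 markers and at 3.40, 5.08, 310 and 69.7 CPM in T-marker cells. Hdc, the histamine-forming enzyme, had no UMI in the WT cells with at least 4 markers and 41 and 43 UMIs in D3TA cells (43.2 and 62.5 CPM), at least 14.1-fold higher against a floor of 3 UMIs over both WT libraries, with 39.9 and 12.1 CPM in D3TA T-marker cells. Wfdc21 likewise had 0 UMIs in WT, and was at least 17.1-fold higher in D3TA at 69.5 and 52.3 CPM, with 63.1 and 41.6 CPM in T-marker cells. Selected D3TA cells with 3 monocyte markers held more of all 3 genes than those with at least 4. They stood at 1361 and 432.5 CPM for Retnlg, 199.5 and 66.0 CPM for Hdc, and 137 and 84.5 CPM for Wfdc21. How much of these levels belongs to the selected cells was not tested.

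**Figure D3:**
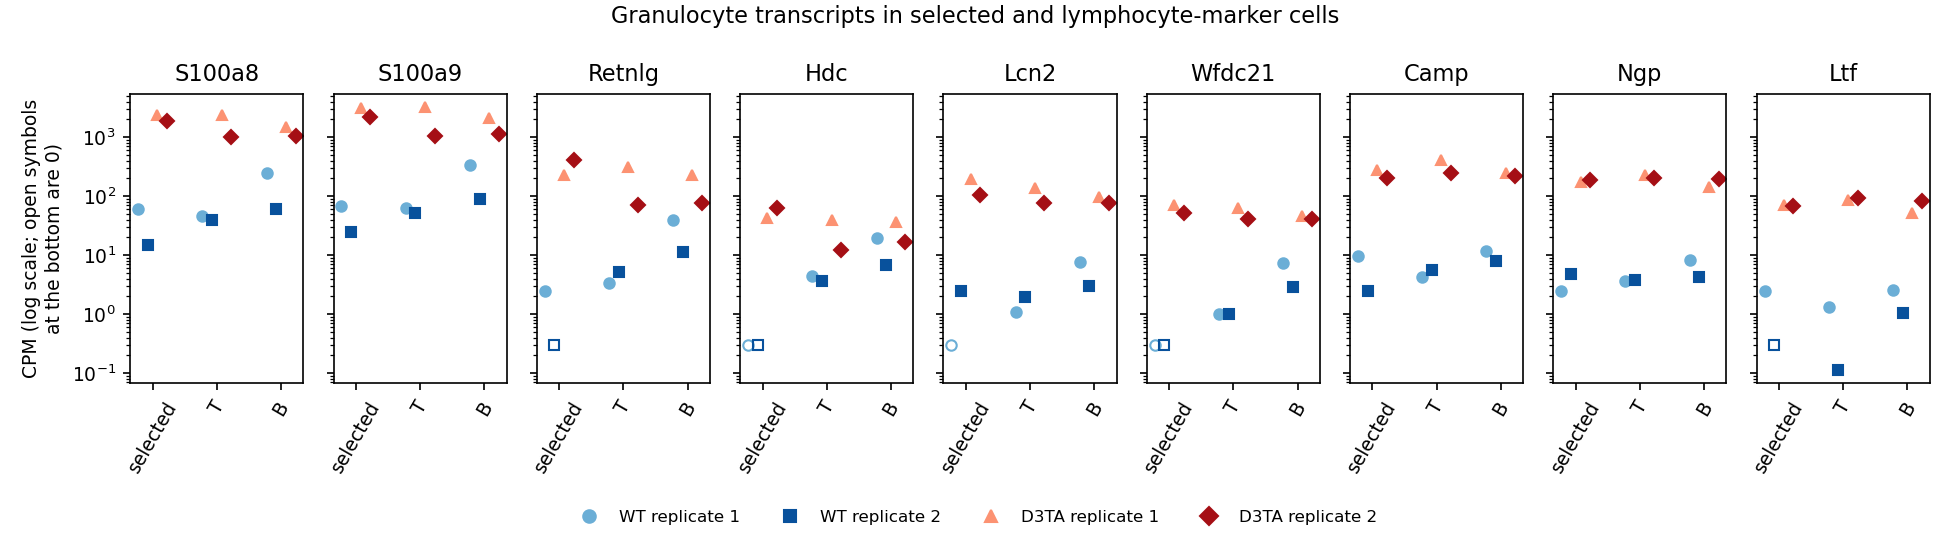
Level of 9 granulocyte transcripts on a log scale in cells with at least 4 monocyte markers ("selected"), in T-marker cells and in B-marker cells outside the selection. Points are libraries. The D3TA points of each gene lie above its WT points in all 3 kinds of cell, except for Hdc in B-marker cells (19.5, 6.91, 36.3 and 16.7 CPM), with S100a8 in D3TA replicate 1 at 2338 CPM in the selected and 2326 CPM in T-marker cells.

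Immediate early genes, which cells transcribe within minutes of a stimulus and which also rise while tissue is being dissociated, were called too. Jun, a subunit of the transcription factor AP-1, was at 31.8, 43.9, 151 and 122 CPM and rose by 1.82 ± 0.28 on the log2 scale (adjusted p = 0.0450 by edgeR). With at least 4 markers it was at 43.7, 60.8, 173 and 202 CPM and remained called (1.85 ± 0.34, adjusted p = 0.0354). Both D3TA libraries were above both WT libraries at 3 markers, at 5 or 6 markers (44.8, 79.9, 185 and 239 CPM) and in T-marker cells (16.7, 22.5, 139 and 84.5 CPM).

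Fosb, an AP-1 partner of Jun, was at 6.11, 9.64, 42.3 and 58.0 CPM (2.61 ± 0.37, edgeR adjusted p = 0.0343), and at 10.3, 13.9, 63.1 and 52.4 CPM with 5 or 6 markers. At 4 or more markers its edgeR adjusted p was 0.0521 (2.50 ± 0.49). Zfp36, which encodes a protein that destabilizes cytokine mRNAs, was at 46.5, 46.0, 145 and 169 CPM (1.73 ± 0.24, edgeR adjusted p = 0.0329) and at 69.0, 86.8, 146 and 320 CPM with 5 or 6 markers (adjusted p = 0.136 for at least 4 markers). Jun, Fosb and Zfp36 lost their call when either WT library was left out, at adjusted p values from 0.285 to 0.511 by edgeR, and kept it without either D3TA library.

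The whole list of AP-1 and immediate early genes had a positive median. Of its 27 genes 22 were tested, 3 were called higher and 0 lower, and the median log2 fold change was 0.75 against 0.00 over all genes tested. In 14 of the 22 both D3TA libraries were above both WT libraries, against 20.5% of all genes. Fos was just short of the threshold at 34.2, 55.7, 159 and 147 CPM (adjusted p = 0.0502), and Egr1 stood at 7.34, 16.1, 41.0 and 58.4 CPM (adjusted p = 0.0817). At 4 or more markers 18 were tested, 1 was called higher, the median was 0.66 and 10 had both D3TA libraries on top, against 16.8% of all genes. Nr4a1, the receptor that nonclassical monocytes depend on, differed in sign from the others, at 52.6, 47.1, 33.8 and 32.7 CPM without a call (-0.60 ± 0.26).

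The 250 bases before the RefSeq start of these 3 called genes were searched, on both strands, for TGACGTCA (the cyclic AMP response element), TGANTCA (the AP-1 site) and the CArG box of serum response factor. The windows of Jun and Fosb held no exact match to any of them. The search allowed no mismatch, and the Jun window holds TGACATCA, which is 1 letter from TGACGTCA. How many windows hold such near matches was not counted. The window of Zfp36 held 1 CArG box, which 1.47% of 32851 such windows contain (1.55% hold TGACGTCA and 6.75% TGANTCA). It is printed 5′ to 3′ with the match in capitals, from RefSeq promoters in GRCm38.p6 on the minus strand at chr7:28379229-28379478. GENCODE also annotates a longer Zfp36 transcript, from a start further upstream at 28380253, and the window lies within its span. A match describes letters and not a bound site.

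Zfp36: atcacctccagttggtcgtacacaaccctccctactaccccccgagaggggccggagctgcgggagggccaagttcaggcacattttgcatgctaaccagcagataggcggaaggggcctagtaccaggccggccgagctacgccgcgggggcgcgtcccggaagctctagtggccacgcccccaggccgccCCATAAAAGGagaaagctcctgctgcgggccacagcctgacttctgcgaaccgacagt

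Other calls rested on genes that were high in the cells with 3 markers. Eomes, a transcription factor of NK and memory T cells, was at 18.3, 15.0, 73.7 and 87.4 CPM in all selected cells (log2 fold change 2.25 ± 0.30, edgeR adjusted p = 0.0239). It was at 34.5, 26.8, 99.0 and 120 CPM with 3 markers, and with 5 or 6 markers at 0 in each library except D3TA replicate 1 (14.5 CPM). Ifngas1, a noncoding RNA beside the interferon gamma gene, was at 71.5, 78.4, 190 and 166 CPM with 3 markers and at most 6.90 CPM with 5 or 6. T-marker cells outside the selection held 73.6, 69.3, 267 and 115 CPM of it.

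Rgs1, a regulator of chemokine receptor signalling in lymphocytes, and Cd69, an early activation marker, were called too. Rgs1 was at 17.3, 5.74, 136 and 59.1 CPM with 3 markers and at 0, 0, 9.21 and 9.70 CPM with 5 or 6. Cd69 was called in all selected cells (1.67 ± 0.27, edgeR adjusted p = 0.0498), at 41.9, 19.1, 145 and 118 CPM with 3 markers, but with at least 4 markers it stood at 19.4, 43.8, 23.2 and 23.3 CPM and its log2 fold change turned to -0.42 ± 0.49. Tox, a transcription factor of T cells, was at 91.7, 77.1, 481 and 260 CPM in all selected cells and at 24.1, 0, 64.4 and 15.5 CPM with 5 or 6 markers. Htr7, a serotonin receptor gene, was at 3.67, 4.28, 31.4 and 46.0 CPM in all selected cells (3.22 ± 0.44, adjusted p = 0.0281) and rested on 2, 2, 27 and 6 UMIs with at least 4 markers.

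Il1b, the inflammatory cytokine, was at 14.7, 21.4, 177 and 90.7 CPM in all selected cells (2.86 ± 0.42, edgeR adjusted p = 0.0369). With 5 or 6 markers the levels were 27.6, 59.0, 52.6 and 161 CPM and the groups overlapped, and with at least 4 markers the adjusted p was 0.474. It stood at 3.66% of its level in neutrophil-marker cells. Il1b was the only one of 17 tested cytokine and chemokine genes called in all selected cells, where the list's median was -0.51. With at least 4 markers the only call among 10 was Ccl5, a chemokine of cytotoxic lymphocytes, at 138, 9.73, 1794 and 439 CPM (3.96 ± 0.77, edgeR adjusted p = 0.0464). T-marker cells held 1061, 1579, 17430 and 1535 CPM of it. With 5 or 6 markers Ccl5 was at 138, 10.4, 1128 and 103 CPM and the groups overlapped. Il18r1, the receptor for interleukin 18, was called with at least 4 markers as well, on 1, 0, 27 and 30 UMIs.

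Genes called lower were few. A330040F15Rik, a noncoding gene at chr19:12517915-12596566 on the minus strand of GRCm38, was at 122, 103, 38.2 and 28.2 CPM (-1.77 ± 0.28, edgeR adjusted p = 0.0450). With at least 4 markers it was at 179, 153, 37.9 and 48.0 CPM (-1.95 ± 0.34, adjusted p = 0.0220) and with 5 or 6 markers at 217, 184, 36.8 and 60.1 CPM. In D3TA replicate 1 the level was 38.4 CPM with 3 markers, close to its level with 5 or 6, while the WT libraries stood at 64.1 and 63.1 CPM with 3 markers. T-marker cells had 52.2, 34.4, 23.9 and 28.5 CPM and B-marker cells 147, 116, 74.5 and 95.8 CPM, with the D3TA libraries lower in both. It lost the call without either WT library, at adjusted p values of 0.376 and 0.387.

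Siglech and Cd300c, surface receptors known from plasmacytoid dendritic cells, and Ppm1e, a phosphatase, were the other genes called lower. Siglech was at 232, 74.6, 53.5 and 24.3 CPM in cells with 3 markers and had no UMI in cells with 5 or 6 markers of any library, and fell by 2.15 ± 0.35 on the log2 scale in all selected cells (edgeR adjusted p = 0.0488). It was called with at least 4 markers as well (-4.90 ± 0.70, adjusted p = 0.00316), at 38.8, 160, 2.1 and 4.36 CPM, from cells with exactly 4. The 5 plasmacytoid dendritic cell markers summed to 607, 184, 200 and 133 CPM with 3 markers. Cd300c was at 33.0, 42.8, 7.51 and 7.04 CPM in all selected cells and at 0, 20.8, 0 and 1.94 CPM with 5 or 6 markers. Ppm1e was at 50.1, 36.4, 8.53 and 7.87 CPM (-2.40 ± 0.34, adjusted p = 0.0343) and was called with at least 4 markers as well (-3.26 ± 0.61, adjusted p = 0.0404). B-marker cells held more Ppm1e than the selected cells did, at 74.7, 51.1, 24.3 and 61.0 CPM.

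With at least 4 markers, Ifi213, Mast4 and Adam23 were also called lower. Ifi213, an interferon-inducible gene in the chromosome 1 cluster of DNA-sensing PYHIN proteins (chr1:173566283-173599274, minus strand), was at 131, 112, 13.7 and 33.4 CPM (-2.40 ± 0.42, edgeR adjusted p = 0.0223). In all selected cells it was not called (adjusted p = 0.518), with D3TA replicate 2 at 62.9 CPM. D3TA replicate 1 was low in other cells too, at 7.99 CPM in T-marker cells against 102, 70.0 and 86.9 CPM in the others. Genes of this cluster are similar in sequence, so reads could be shared between them. Mast4, a kinase gene, was at 70.3, 41.4, 6.32 and 11.6 CPM with at least 4 markers, and Adam23 at 31.5, 34.1, 1.05 and 0 CPM, with at most 1.32 CPM in the cells with 5 or 6 markers.

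Ifi204, of the same cluster and part of the list of monocyte identity genes, was not called in all selected cells at 172, 142, 58.4 and 67.1 CPM (-1.35 ± 0.24, edgeR adjusted p = 0.0604). It was high in the cells with most monocyte markers, at 400, 441, 184 and 291 CPM with 5 or 6, and at most 24.7 CPM with 3. Both D3TA libraries were lower at 5 or 6 markers, and with at least 4 markers the log2 fold change was -0.74 ± 0.30 without a call. Grm8, a glutamate receptor gene, was not called either, at 61.1, 94.2, 24.2 and 14.9 CPM (adjusted p = 0.0604). It had no UMI in any cell with 5 or 6 markers.

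**Figure D4:**
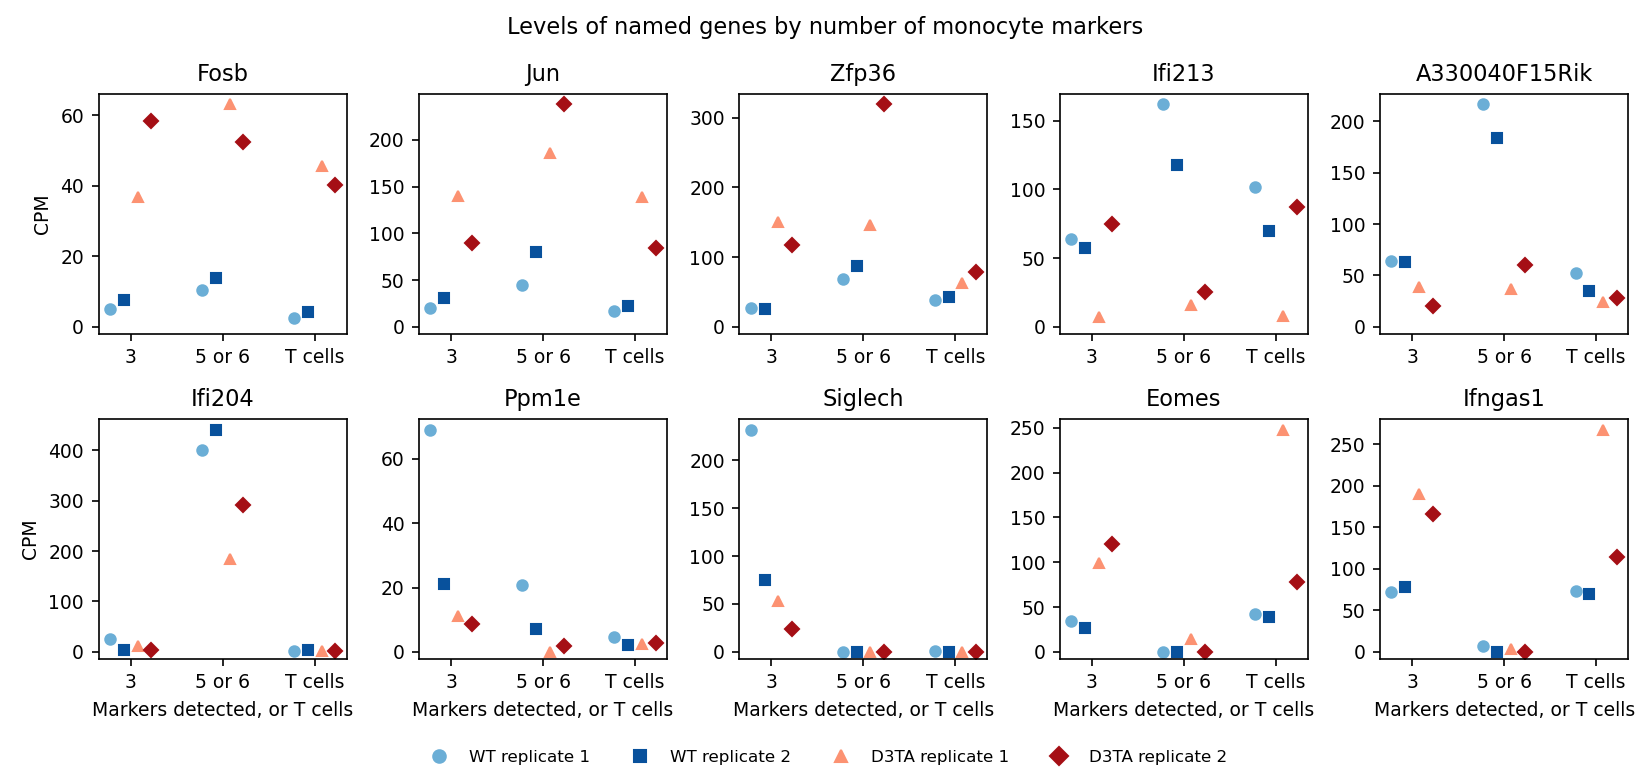
Level (CPM, linear scale from 0) of 10 named genes in selected cells with 3 markers, selected cells with 5 or 6 markers, and T-marker cells outside the selection. Points are libraries: Fosb, Jun and Zfp36 are higher in D3TA in all 3 kinds of cell, Ifi204 is highest at 5 or 6 markers, as A330040F15Rik is except in D3TA replicate 1, and Siglech and Ifngas1 are at or near 0 there.

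Genes that define monocytes were described without reading a test from them, since 6 of them made the rule. None of the 6 was called. Fn1, fibronectin, was at 607, 534, 202 and 362 CPM in all selected cells and at 1050, 1209, 594 and 1257 CPM with at least 4 markers, where the groups overlapped. Csf1r, the receptor for the growth factor M-CSF, was at 216, 194, 104 and 117 CPM and at 378, 382, 260 and 356 CPM in the same order. F13a1 was at 586, 435, 305 and 253 CPM in all selected cells and at 1057, 975, 889 and 872 CPM with at least 4 markers. The log2 fold changes of Ccr2 and Ms4a6c had opposite signs in all selected cells (-0.14 and -0.34) and in cells with at least 4 markers (0.48 and 0.25). Ly6c2 was at 786, 732, 1733 and 843 CPM with at least 4 markers, highest in D3TA replicate 1.

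The list of 20 monocyte identity genes gave different medians in the 2 fits. In all selected cells its median log2 fold change was -0.47, 0 genes were called, and both D3TA libraries were lower than both WT libraries for 11 genes (17.7% of all genes) and higher for 2. At 4 or more markers the median was 0.08, 5 genes were lower and 6 higher (16.6% and 16.8% of all genes), and 0 were called. Lyz2 was at 18290, 15730, 13690 and 9154 CPM there without a call (-0.55 ± 0.32, adjusted p = 0.922). Vcan, a matrix proteoglycan of classical monocytes, went the other way there, at 89.7, 107, 316 and 183 CPM (1.38 ± 0.36, adjusted p = 0.282).

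The edited gene and its partners were not called. Ccnd3 was at 597, 492, 540 and 699 CPM in all selected cells (log2 fold change 0.16 ± 0.24, edgeR adjusted p = 0.938). With at least 4 markers it was at 434, 409, 340 and 406 CPM (-0.17 ± 0.29), lower in each library than in all selected cells, and the sign of the difference turned. T-marker cells held 1050, 1037, 754 and 1110 CPM. Ccnd2, another D cyclin, went from 148, 132, 146 and 201 CPM in all selected cells to 31.0, 0, 25.0 and 27.2 CPM with 5 or 6 markers. Ccnd1 was at 63.6, 73.9, 28.7 and 39.3 CPM (-1.05 ± 0.27, adjusted p = 0.169) and Cdk4 and Cdk6 at log2 fold changes of -0.11 ± 0.30 and 0.39 ± 0.28. Of the 23 tested genes of the D cyclin, CDK and RB list, 0 were called, the median was 0.26 in all selected cells and 0.09 with at least 4 markers.

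Genes of DNA replication were described too, since the rule took out cycling cells. The list of S phase genes had 0 calls among 21 tested genes and a median log2 fold change of 0.49. In 13 of the 21 both D3TA libraries were above both WT libraries and in 0 below, against 20.5% and 17.7% of all genes. Pcna, the sliding clamp of DNA polymerase, was at 57.5, 56.8, 84.7 and 94.4 CPM (adjusted p = 0.418), and Mcm6, a subunit of the replicative helicase, at 20.8, 21.4, 46.4 and 39.3 CPM (adjusted p = 0.251). In the fit on 4 or more markers 10 genes were tested, the median was 0.44 and 4 had both D3TA libraries on top (16.8% of all genes). The limit of the rule counted 4 genes of the later cycle, Mki67, Top2a, Cenpf and Nusap1.

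Interferon-stimulated genes gave no call in all selected cells. Of 52 tested, 0 were called, the median was -0.28, and in 19 both D3TA libraries were below both WT libraries (17.7% of all genes). In the other fit 50 were tested, 1 was called lower (Ifi213), the median was -0.13 and 14 were lower in both D3TA libraries (16.6% of all genes). In these cells Ifit3, which blocks viral RNA translation with its partners, was at 87.3, 99.7, 16.8 and 37.8 CPM (-1.80 ± 0.41, edgeR adjusted p = 0.127) and Slfn5 at 470, 470, 248 and 308 CPM (-0.75 ± 0.29, adjusted p = 0.712). Irf7, a regulator of the response, overlapped between the groups, at 70.3, 110, 101 and 102 CPM with at least 4 markers.

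The list of 15 tested genes ascribed to neutrophil-like monocytes had 5 calls higher (Lcn2, S100a8, S100a9, Wfdc21 and Retnlg; 0.248% of all genes) and 0 lower, with a median of 1.37 in all selected cells and 0.79 with at least 4 markers, where the same 5 of 13 were called (0.17% of all genes). These are the transcripts that lymphocytes of the same libraries also held. Chil3, Mcemp1 and Anxa1 of this list were not called, and Chil3 stood at 652, 847, 1054 and 747 CPM with at least 4 markers.

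The other lists had 0 calls in both fits. Of the 30 growth factor receptor and JAK-STAT genes tested, Pim1, a kinase gene induced by STAT5, was at 72.7, 105, 288 and 161 CPM with at least 4 markers (1.38 ± 0.38, adjusted p = 0.319), and the list's median was -0.12. Heat shock chaperones had medians of 0.30 and 0.32, and glycolysis genes 0.24 and 0.33. Lysosomal proteases went from -0.33 in all selected cells to 0.24 with at least 4 markers, where 10 of 22 genes were higher in both D3TA libraries (16.8% of all genes), among them Ctsc, the activator of granule proteases, at 405, 360, 836 and 661 CPM (0.99 ± 0.31, adjusted p = 0.479). Monocyte fate transcription factors went from -0.39 to 0.08. Apoe, a lipid carrier, was at 1149, 1496, 811 and 503 CPM with at least 4 markers (-0.98 ± 0.33, adjusted p = 0.564), the groups not overlapping.

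**Figure D5:**
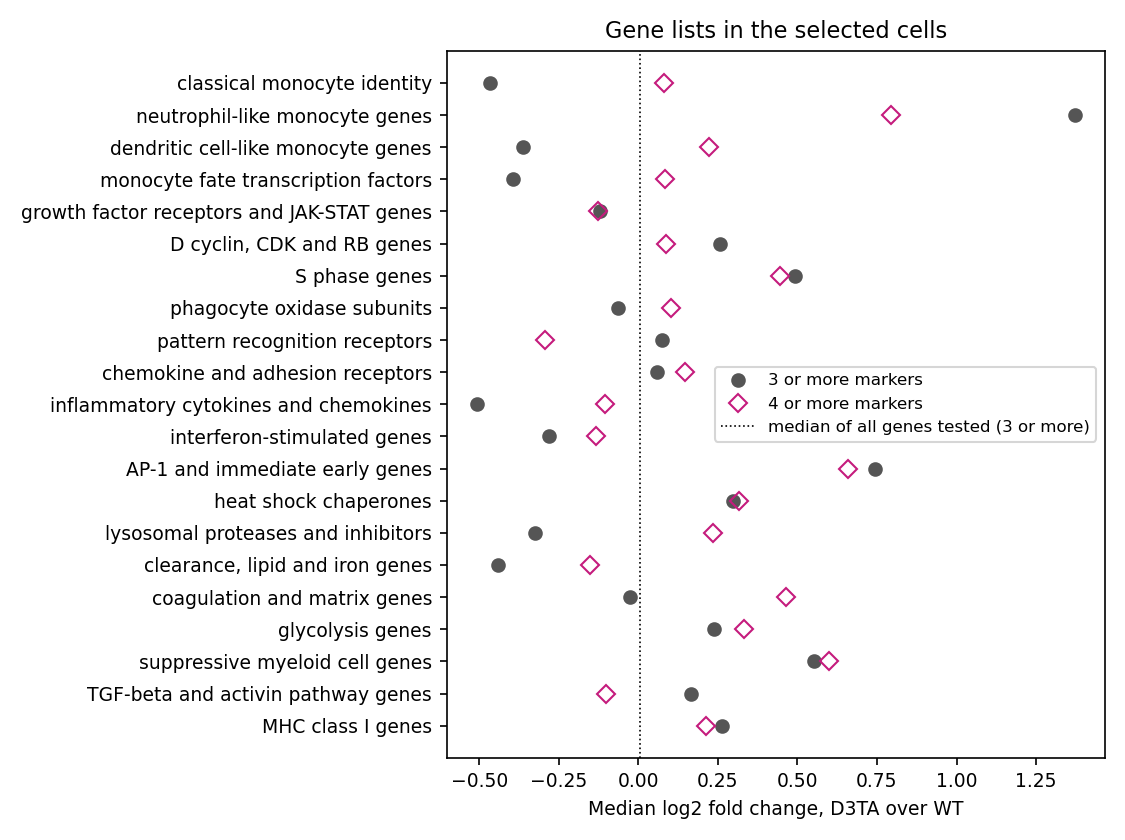
Median log2 fold change (D3TA over WT) of 21 gene lists in all selected cells (filled circles) and in cells with at least 4 markers (open diamonds), with the median of all genes tested as a dotted line. The monocyte identity list moves from -0.47 to 0.08 between the fits, while the AP-1 list stays at 0.75 and 0.66.

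The last comparisons asked whether the genotype difference of the selected cells differed from that in 2 related kinds of cell. Nonclassical monocytes, patrolling cells that arise from classical ones, were taken as cells with 3 or more of Ace, Treml4, Adgre4, Eno3 and Ear2 (133 cells), and red pulp macrophages, which recycle iron, as cells with 3 or more of C1qa, C1qb, C1qc and Vcam1 (471 cells). In edgeR's test of the class by genotype term, with the mouse as a block, 2 of 8417 genes were called against nonclassical monocytes (0.0238%), 552 had an unadjusted p under 0.05, and DESeq2 called 0. Against macrophages 0 of 9545 genes were called (529 at an unadjusted p under 0.05, 0 by DESeq2). Jun, Fosb, S100a8 and A330040F15Rik were not among the calls in either test, so a difference particular to the selected cells was not shown for them.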

How the data were processed

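The authors deposited raw UMI counts per gene and barcode. Per the file headers they were made with Cell Ranger 7.0.1. The submitters' processing notes name the mm10 build. For intron counting and the annotation release no setting was given in the sources used here. The files held 64410 barcodes and 32285 genes. Spleens were minced, filtered and freed of red cells per the labels' protocols, with a target of 10000 cells a sample.

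The cell rule is stated at the start. No doublet step was applied. Scrublet (scanpy 1.11.5) was an alternative and marked 1.13%, 2.50%, 5.66% and 3.44% of cells, WT replicate 1 at the mean threshold of the other libraries, a choice made after seeing the data. UMIs were summed per library and tested with edgeR 4.0.16 (filterByExpr, TMM, glmQLFTest, Benjamini-Hochberg, two-sided, R 4.3.3), with DESeq2 1.42.0 as an alternative. Each library is 1 mouse, so p-values rest on the spread between the libraries of a group, which edgeR estimates partly from all genes together. That spread can also hold differences in depth and in the mixture of cells. Python 3.11.15, numpy 2.4.6, scipy 1.17.1 and pandas 2.3.3 were used. T- and B-marker cells outside the selection met the same limits and had at least 3 markers of that type. Alternatives covered a stricter filter (1000 UMIs, 500 genes, 5% mitochondrial), at least 4 markers, cells with markers of other types (not neutrophils) left out, cells with neutrophil markers left out (added after seeing the data), thinning, DESeq2's size factors (median-ratio scaling), all genes without a filter on low counts, the replicate block and each library left out. Fits were tested on simulated data.

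Named genes were those called, with D3TA libraries all above or all below the WT libraries, at 20 CPM or more on average, and not under 1 part in 5 of their level in another marker-defined type, up to 12 per direction, or the 5 smallest p values of a direction with under 5 calls. Receptor segments, hemoglobin and unnamed models were left out. Up to 4 called genes per list, the 6 rule genes, the D cyclins, Cdk4 and Cdk6 were added. S100a9, Camp, Ngp, Ltf, Hdc, Tox, A330040F15Rik, the other genes called with at least 4 markers, and uncalled list members were named after their values were seen. The members and the 21 lists were chosen with earlier results of these data known, and 5 list or marker genes were not among the genes.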

Additional observations from a re-analysis of the deposited data

Results flagged for a closer look

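In 2 genes the genotype difference of the selected cells differed from that of nonclassical monocytes by edgeR's test of the class by genotype term. They were named after their values were seen. Zdhhc14, a palmitoyltransferase gene, was at 85.6, 133, 25.3 and 52.2 CPM in the selected cells (WT replicates 1 and 2, D3TA replicates 1 and 2) and at 13.5, 20.9, 44.5 and 83.7 CPM in nonclassical monocytes. The difference of the log2 fold changes was -3.40 ± 0.46 (SE, adjusted p = 0.0206). Dip2c was at 72.2, 31.1, 22.9 and 40.6 CPM in the selected cells and at 0, 2.32, 46.7 and 69.3 CPM in nonclassical monocytes, a difference of -5.90 ± 0.85 (edgeR adjusted p = 0.0222). The WT levels of Dip2c in nonclassical monocytes rest on 0 and 1 UMIs. DESeq2 called neither gene. Both stood in the selected cells at under 1 part in 5 of their level in another cell type. Zdhhc14 was at 11.7% of its level in erythroid cells and Dip2c at 11.05% of that in red pulp macrophages. B-marker cells held 194, 193, 42.6 and 248 CPM of Zdhhc14 and 40.5, 33.4, 73.8 and 79.3 CPM of Dip2c. T-marker cells held 23.5, 21.2, 5.26 and 22.4 CPM, and 32.7, 30.3, 5.01 and 43.3 CPM. The part of free RNA was not tested.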

How the results depend on the processing

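The gap in the share of selected cells was 1.19 points and moved to 0.206 with at least 4 markers, 0.110 without cells holding markers of lymphoid, erythroid, dendritic or other cells (neutrophil markers kept), 0.471 after thinning and -0.447 without cells holding 3 or more neutrophil markers, which was chosen after seeing the data. The last of these settings took out 0 and 1 WT cells against 223 and 164 D3TA cells. With 1 library left out the gap ranged from 1.08 to 1.30. The gap in cycling share was 31.0 points, 54.4 with at least 4 markers and 44.9 with the same non-neutrophil types left out, and 23.6 to 38.5 with 1 library left out. The 29 calls became 18 with at least 4 markers, 12 after thinning (1476 genes tested), 465 with no filter on low counts (18212 tested) and 75 with DESeq2, and 0 to 617 with 1 library left out. The 18 calls with at least 4 markers became 45 to 445 with 1 library left out. Where 1 library remained in a group it was assumed to vary like the other. The 2 calls against nonclassical monocytes became 9 under a stricter cell filter, 7 with at least 4 markers, 0 after thinning, 89 with no filter and 0 with DESeq2, and 3 to 85 with 1 library left out. The 0 calls against macrophages became 107 with no filter and 0 to 10 with 1 library left out. The cause was not tested.

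The numbers of the libraries pair nothing in the labels, and the deviations of same-numbered libraries correlated at r = 0.0253 over 10084 genes. With the replicate block 30 genes were called, 21 of which were among the 29 without it, and 44 with at least 4 markers. The block, DESeq2 and left-out libraries for the fit with at least 4 markers were chosen after seeing the data.

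Among named genes, 381 results kept direction and side of the threshold, 35 passed newly, 52 no longer passed and 16 changed sign. Those 16 were Cd69 with at least 4 markers (-0.42), Adam23 without D3TA replicate 1 (0.35), Cdk4 without D3TA replicate 2 (0.16), Cdk6 with at least 4 markers (-0.28), Ccr2 under the stricter filter (0.028), with at least 4 markers (0.48), without other markers (0.33), thinned (0.11), without WT replicate 1 (0.0023) and without D3TA replicate 2 (0.016), Ms4a6c with at least 4 markers (0.25), without other markers (0.20) and thinned (0.29), and Ccnd3 with at least 4 markers (-0.17), without other markers (-0.025) and thinned (-0.091). With 1 library left out, Adam23 ranged from -1.15 to 0.35, Ccr2 from -0.29 to 0.016 and Cdk4 from -0.44 to 0.16. Simulated counts with 200 changed genes gave back 89% of 4-fold and 18% of 2-fold changes among 10074 genes of the selected cells, and 86% and 10% among 7016 with at least 4 markers. Of the calls, 5.31% and 3.03% were false. The simulation gave every gene the same fixed dispersion, not that of these data, and the groups equal means for unchanged genes. Its rates therefore do not give the power of the fits on these libraries.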

Other observations

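Id2, which restrains E proteins in lymphocytes and dendritic cells, was at 46.1, 29.2, 165 and 118 CPM with at least 4 markers (log2 fold change 1.93 ± 0.39, edgeR adjusted p = 0.06) and at 159, 163, 318 and 319 CPM in all selected cells (0.96 ± 0.22, adjusted p = 0.139). Tcf4, the E protein of plasmacytoid dendritic cells, was at 588, 623, 278 and 297 CPM in all selected cells without a call (-1.10 ± 0.22, adjusted p = 0.0989). Both were singled out after their values were seen.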
